A study of Mus musculus with 2 samples.

Results

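Megabase windows rich in EBF1 peaks were examined in mature follicular B cells of mouse spleen. A window was taken as peak-rich when it held at least 6 peak centres of the authors' EBF1 list. Windows of 1 Mb were laid from position 1 along chromosomes 1 to 19, and only those with at least 2000 input reads were considered. Peaks in a 1 kb bin with at least 50 input reads, called high-input peaks here, were not counted. By this rule 452 of 2383 windows (18.97%) were peak-rich, 1071 held 1 to 5 peaks and 860 held 0 peaks. The windows were chosen from the number of ChIP peaks, so that number, and every measure taken from the same ChIP and input reads, is given as a description with no test.

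The cells came from adult C57BL/6 mice and no further allele or treatment is given in the labels. Magnetic depletion had left a population of which about 97% carried B220, and about 92% of these were CD23 positive with intermediate CD21. Chromatin was fixed in 1% formaldehyde for 10 min and sonicated to about 200 bp. The EBF1 ChIP group used 4 µg of a rabbit antibody raised against mouse EBF1, and the Input group was input chromatin with no antibody listed, with 1 library in each. With 1 library per group there was no replicate check, and the data are DNA, so the cell type could not be checked against marker transcripts. On the assembled chromosomes the libraries held 24337709 ChIP and 23033569 input reads, and the median peak-rich window contained 12880 ChIP reads and 9963 input reads. All positions are in mm8.

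EBF1 (early B cell factor 1) is a DNA-binding protein of the COE family that is required to specify and maintain the B cell lineage. It binds enhancers and promoters of B cell genes, often together with PAX5 and other factors, and can act at closed chromatin early in the lineage. At the scale of megabases, mammalian chromosomes alternate between gene-rich, active, early-replicating stretches and gene-poor, inactive ones. Transcription factor sites are known to be more frequent in the active stretches.

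Peak-rich windows covered a small part of the genome and held most of the listed EBF1 peaks. Of the 7275 autosomal peaks outside high-input bins, 4655 (64.0%, 62.9 to 65.1%) lay in these windows, which made up 19.4% of the covered length. Covered length counts 1 kb bins with at least 1 input read. The peaks there took 92539 of the 139210 ChIP reads counted in all such peaks (66.5%, 66.2 to 66.7%). Windows with 1 to 5 peaks held 2619 peaks on 44.9% of the covered length. Of all ChIP reads in the windows considered, 25.3% fell in peak-rich windows, against 20.6% of the input reads. These shares follow from the choice of windows and are given for scale, and their intervals cover counting error only.

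A peak-rich window held a median of 8 peaks, with the middle 50% of windows between 7 and 12 and a maximum of 44. Just inside the limit, 86 windows held 6 peaks, and just outside it 113 held 5. The off-peak ratio, the ChIP to input ratio in 1 kb bins at least 2 kb from any listed peak and scaled to library size, had a median of 1.09 with 6 peaks and 1.08 with 5. Windows on the 2 sides of the limit were thus nearly alike in that measure. High-input peaks numbered 51 on the autosomes, and 39 of them lay in 5 of the peak-rich windows. Counting them would have added 2 windows, on chromosome 13 from 12000001 to 13000000 and on chromosome 17 from 39000001 to 40000000.

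Every autosome held peak-rich windows, in unequal shares. On chromosome 11, 49 of 119 windows (41.2%) were peak-rich, and on chromosome 19, 19 of 59 (32.2%). Chromosomes 15 and 17 followed with 26.7% and 26.1%. The lowest shares were on chromosome 3, with 13 of 157 (8.28%), and chromosome 14, with 11 of 117 (9.40%).

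Peak-rich windows often lay next to each other. The 452 windows formed 246 runs of adjacent windows, of which 150 were single windows, 45 had 2 windows and 51 had 3 or more. Runs of 2 or more held 302 windows (66.8%), and runs of 3 or more held 212 windows with 2403 peaks (51.6% of the peaks in peak-rich windows). Among the 893 neighbours of peak-rich windows, 412 (46.1%) were peak-rich as well, 385 (43.1%) held 1 to 5 peaks and 96 (10.8%) held 0. Among the 2103 neighbours of windows with 1 to 5 peaks, 18.3% were peak-rich and 30.3% held 0 peaks.

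The longest runs spanned 9 Mb, on chromosomes 17 and 2. The run on chromosome 17 from 23000001 to 32000000 held 118 peaks, 21 of them with a score of at least 10. The score is the authors' own value for a peak and serves here only to describe peaks within their list. From its start to its end, the windows of this run held 9, 21, 12, 17, 11, 18, 14, 9 and 7 peaks. Their off-peak ratios were 1.21, 1.34, 1.45, 1.37, 1.52, 1.32, 1.29, 1.22 and 1.29. The highest ratio thus fell in a window with only 11 peaks. The window before the run had 1 peak and a ratio of 0.777, below every window of the run, and the window after it had 5 peaks and a ratio of 0.990.

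On chromosome 2, the run between 24000001 and 33000000 contained 111 peaks, the highest scoring 82.3. Its windows held 8, 16, 15, 9, 8, 8, 21, 8 and 18 peaks, with off-peak ratios of 1.10, 1.43, 1.37, 1.44, 1.31, 1.34, 1.41, 1.42 and 1.40. Apart from the first window, the ratio kept between 1.31 and 1.44 although the number of peaks went from 8 to 21. The run had opposite flanks. The window before it held 0 peaks at a ratio of 0.787, and the window after it held 3 peaks at 1.32.

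The next run by length and number of peaks spanned 8 Mb of chromosome 4, from 129000001 to 137000000, with 113 peaks. Its windows held 7, 7, 13, 32, 18, 14, 15 and 7 peaks, with off-peak ratios of 1.28, 1.35, 1.16, 1.28, 1.31, 1.40, 1.22 and 1.47. The window with 32 peaks was not the one with the highest ratio, which was the last, with 7 peaks. Both windows beside this run held 4 peaks and had ratios within the range of the run, 1.29 and 1.37. At its start the ratio was no higher inside than outside, and at its end it went from 1.47 (1.44 to 1.51) to 1.37 (1.34 to 1.41).

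**Figure D1:**
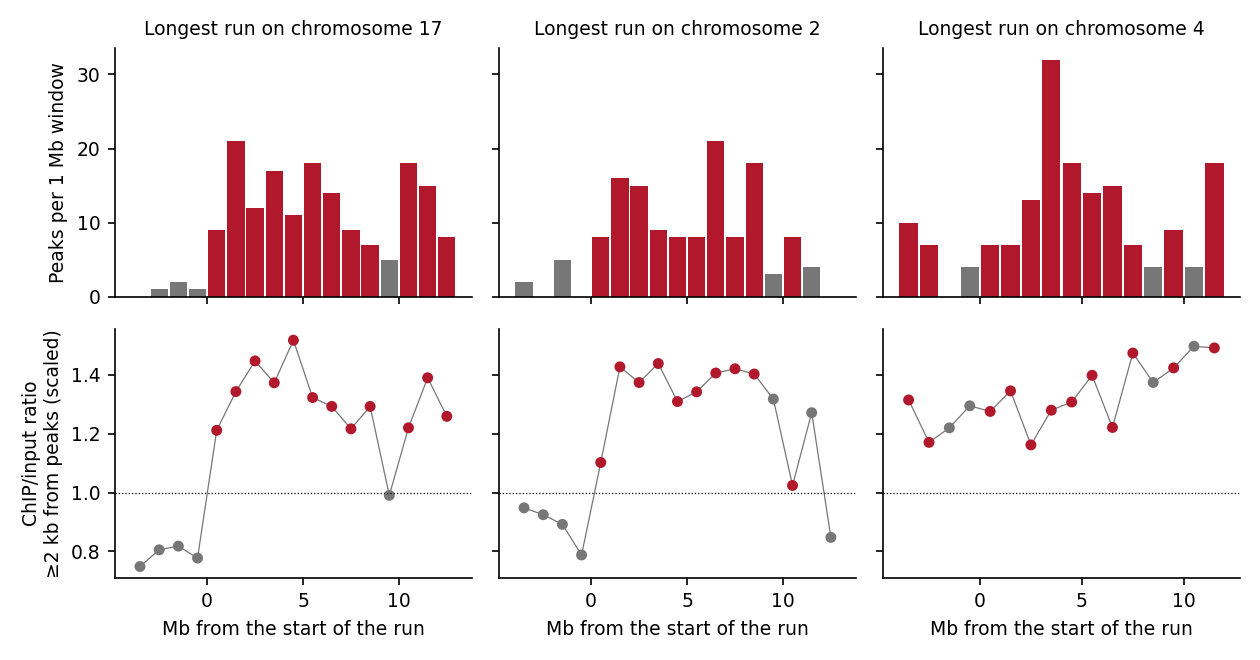
Peaks per 1 Mb window (bars, top) and the scaled ChIP to input ratio at least 2 kb from peaks (points, bottom) along the 3 longest runs and 4 Mb on each side, with distance in Mb from the start of the run; red marks peak-rich windows and grey all others. On chromosome 17 the ratio goes from 0.777 before the run to 1.21 in its first window, while on chromosome 4 it is 1.29 before the run and 1.28 in its first window.

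Windows within long runs had higher off-peak ratios than single windows, also at a similar number of peaks. The median was 1.11 in the 150 single windows, 1.17 in the 90 windows of runs of 2 and 1.25 in the 212 windows of longer runs. Windows with 6 to 8 peaks had a median of 7 peaks in each of the groups that follow. Among them the off-peak ratio was 1.08 in 102 single windows, 1.12 in 42 windows of runs of 2, 1.15 in 54 windows at the ends of longer runs and 1.24 in 32 windows inside such runs. The middle 50% ran from 1.02 to 1.15 in the single windows and from 1.18 to 1.31 inside long runs, so these ranges did not overlap. Peak strength did not follow this order. The median mean signal per peak was 16.6 reads in single windows, 16.1 in runs of 2 and 16.3 in longer runs, where signal is the ChIP reads in the 150 bp of a peak minus the scaled input reads.

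Of the single windows, 50 stood between neighbours with 0 to 2 peaks on both sides. Their median off-peak ratio was 1.07, against 0.987 in their neighbours, and 32 of the 50 (64.0%) were above both neighbours. By choice these windows have more peaks than their neighbours. Among all neighbouring windows that differ in number of peaks, the side with more peaks was higher in 73% of pairs. The share above both neighbours is not given for other windows. The isolated window with the most peaks lay on chromosome 7 from 18000001 to 19000000. It contained 26 peaks, the highest scoring 26.8, and had an off-peak ratio of 1.45 (1.42 to 1.49), between windows with 0 peaks at 0.917 and 1 peak at 1.18. The next, on chromosome 14 from 24000001 to 25000000, held 18 peaks and had a ratio of 1.38 (1.34 to 1.43), against 1.18 and 1.01 beside it. A high count and a high ratio were therefore also found in windows that stood alone.

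The 3 windows with the most peaks were on chromosomes 10 and 2. The densest, on chromosome 10 from 80000001 to 81000000, held 44 peaks with 877 ChIP and 79 input reads and an off-peak ratio of 1.72 (1.67 to 1.76). Its neighbour from 79000001 to 80000000 held 35 peaks with 632 ChIP and 55 input reads and a ratio of 1.65 (1.60 to 1.69). These were also the 2 highest off-peak ratios among the 452 windows. The windows flanking this pair held 1 and 3 peaks, at 0.943 and 0.912. On chromosome 2 from 167000001 to 168000000, 35 peaks with 874 ChIP and 51 input reads had a higher mean signal, 23.4 reads, but a lower off-peak ratio, 1.39 (1.35 to 1.43).

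Among peak-rich windows, number and strength of peaks carried about equal parts of the variation in peak signal, counted in the 150 bp of peaks. The peak signal of a window, the sum over its peaks, had a median of 155 reads and ran from 45.5 to 820. On the log2 scale it is the sum of a term for the number of peaks and a term for the mean signal per peak. The number carried 52.5% of the variance over the 452 windows and the mean signal 47.5%. In windows with 1 to 5 peaks the split was 52.6% and 47.4% over 1070 windows, leaving out 1 whose signal was not above 0. Both classes are limited in peak number by the rule. Over all 1522 windows with 1 or more peaks, number carried 68.7% and mean signal 31.3%. With reads counted in 1 kb around the peak centre the part of number was 62.8%. In windows with at least 8 peaks it was 49.8%, and in windows of 0.5 Mb with at least 3 peaks 46.8%. Which part was larger, and by how much, thus depended on the setting. The term for the mean also holds the counting error of peaks, which had a median of 12 ChIP reads. Number and mean signal were only weakly related in peak-rich windows (Spearman's rho 0.13 over 452 windows of the same 2 libraries).

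Peaks in peak-rich windows were slightly stronger than those in windows with 1 to 5 peaks. In the whole autosomal list, 19.1% of peaks had a score of at least 10. The share was 20.5% (954 of 4655, 19.3 to 21.7%) in peak-rich windows and 16.5% (432 of 2619, 15.1 to 18.0%) in windows with 1 to 5. Scores of 20 and above belonged to 6.28% of all peaks, to 7.18% (334, 6.45 to 7.95%) of those in peak-rich windows and to 4.70% (123, 3.92 to 5.58%) of those in windows with 1 to 5. Median scores were 6.16 and 5.92. Within peak-rich windows the share of peaks with a score of at least 10 was 18.0% in windows with 6 peaks, 18.9% with 9 or 10 and 22.3% with 18 or more, so strength changed little over a wide range of numbers. Of the 50 highest scores, 34 (68.0%) lay in peak-rich windows, beside 64.0% of all peaks.

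Measured against its surroundings, a peak in a peak-rich window did not stand out more. The pooled ChIP to input ratio within peaks was 11.8 (11.5 to 12.1) in peak-rich windows and 10.9 (10.6 to 11.3) in windows with 1 to 5 peaks. Divided by the pooled off-peak ratio of the same windows, 1.20 and 1.01, it was 9.84 and 10.9. The order of the 2 classes thus turned when the surrounding ratio was taken into account. Both ratios come from reads that were used to call the peaks.

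In most peak-rich windows the signal was spread over several peaks. The strongest peak of a window held a median of 28.4% of the ChIP reads in its peaks, where equal peaks would give 12.5%. In 35 of 452 windows (7.74%) it held over 50%. A low share follows in part from asking for at least 6 peaks, and the share is not given for other windows. The highest mean signal, 50.9 reads, was on chromosome 11 from 88000001 to 89000000, where 6 peaks held 321 ChIP and 15 input reads. Its strongest peak, at 88815361 to 88815510, held 188 of them and scored 51.9. On chromosome 5 from 122000001 to 123000000, 9 peaks had a mean of 50.8 reads, led by a peak at 122094541 to 122094690 with 208 ChIP and 2 input reads. The third by mean signal was on chromosome 8 from 109000001 to 110000000, with 42.7 reads over 6 peaks, 66.9% of the ChIP reads in 1 of them. At the other end, windows on chromosome 15 from 89000001, on chromosome 8 from 24000001 and on chromosome 2 from 130000001 had means of 7.58, 7.68 and 7.70 reads over 6, 7 and 6 peaks, and the highest score among them was 6.60.

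At the extremes of peak strength the ratios outside the peaks differed. The 3 windows with the highest mean signal had off-peak ratios of 1.24, 1.33 and 1.20, above the 1.08, 1.17 and 1.16 of the 3 with the lowest. Over all 452 windows the off-peak ratio had a rho of 0.58 with the number of peaks and of -0.01 with their mean signal (Spearman). Windows were also split at the median mean signal within classes of similar peak number. The number still varied within a class. With 6 to 8 peaks the off-peak ratio was 1.13 in the 115 windows with weaker peaks and 1.11 in the 115 with stronger ones, whose median mean signals were 11.6 and 22.2 reads. With 9 to 13 peaks the ratios were 1.24 and 1.20, and with 14 or more 1.31 and 1.33. These points are windows of 1 genome that share both libraries, and rho is given as a description.

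**Figure D2:**
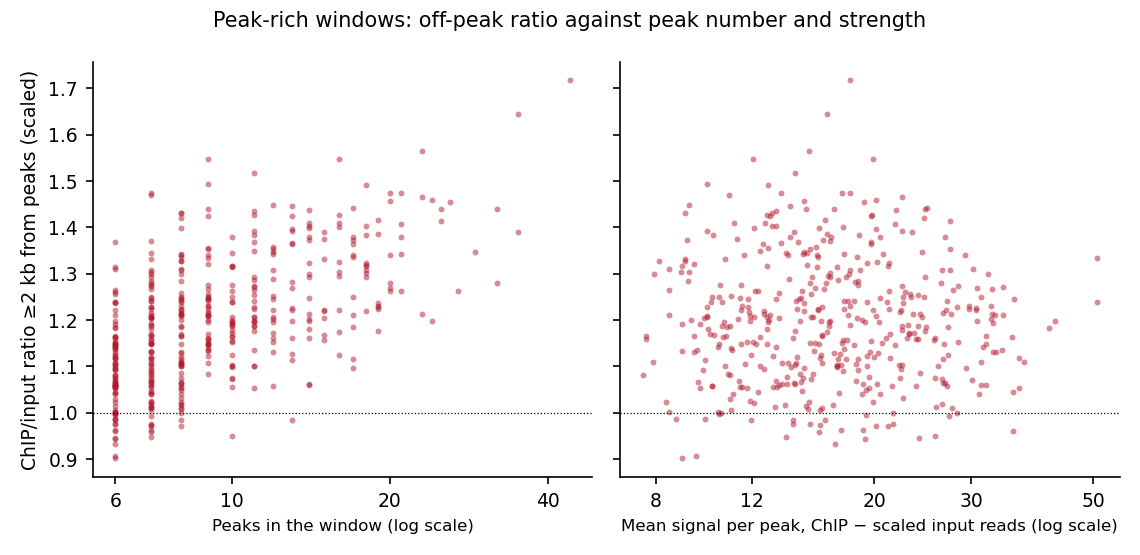
Off-peak ChIP to input ratio of each of the 452 peak-rich windows (points) against its number of peaks (left) and the mean signal per peak in reads (right), both on log axes. The cloud climbs with the number of peaks (rho 0.58) and is flat over the mean signal (rho -0.01), and the 2 points above 1.6 are the neighbouring windows on chromosome 10.

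Within peak-rich windows the peaks lay near each other but seldom in 1 place. The median distance from a peak to the nearest other one was 19.5 kb, against 97.0 kb in windows with 1 to 5 peaks. A shorter distance follows from choosing windows by their number of peaks, and nothing is read from this contrast. Another peak lay within 10 kb of 35.7% of the peaks and within 1 kb of 9.67%. Divided into 10 blocks of 100 kb, a window with 6 peaks had peaks in a median of 4 blocks, and a window with 11 or more in 7. All 10 blocks held a peak in 7 windows. The largest gap between neighbouring peaks of a window had a median of 251 kb, so most peak-rich windows also contained a long stretch with no listed peak.

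Outside the peaks, ChIP reads were more frequent relative to input in peak-rich windows than elsewhere. The off-peak ratio ran from 0.902 to 1.72 over the 452 windows, with a median of 1.20 and the middle 50% from 1.10 to 1.29. In windows with 1 to 5 peaks the median was 1.00 (0.914 to 1.08), and the medians differed by a factor of 1.20. The classes overlapped: 26 peak-rich windows (5.75%) lay below the median of windows with 1 to 5 peaks, and 75 of the latter (7.003%) lay above the peak-rich median. Counting error of the ratio was small, with a 95% interval of about 2.71% on either side in a median peak-rich window. The spread between windows was therefore much wider than counting error.

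Across all windows considered, 24.3% had an off-peak ratio of at least 1.1 and 36.3% had one of at most 0.9. Among peak-rich windows 342 (75.7%) reached 1.1 and 0 were at 0.9 or below, against 218 (20.4%) and 235 (21.9%) of windows with 1 to 5 peaks. Above 1 were 425 of the 452 peak-rich windows, 534 of the 1071 with 1 to 5 peaks and 73 of the 860 with 0. In the 150 windows with 11 or more peaks, 149 were above 1. The contrast is the one that chose the windows, so nothing is read from these counts.

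**Figure D3:**
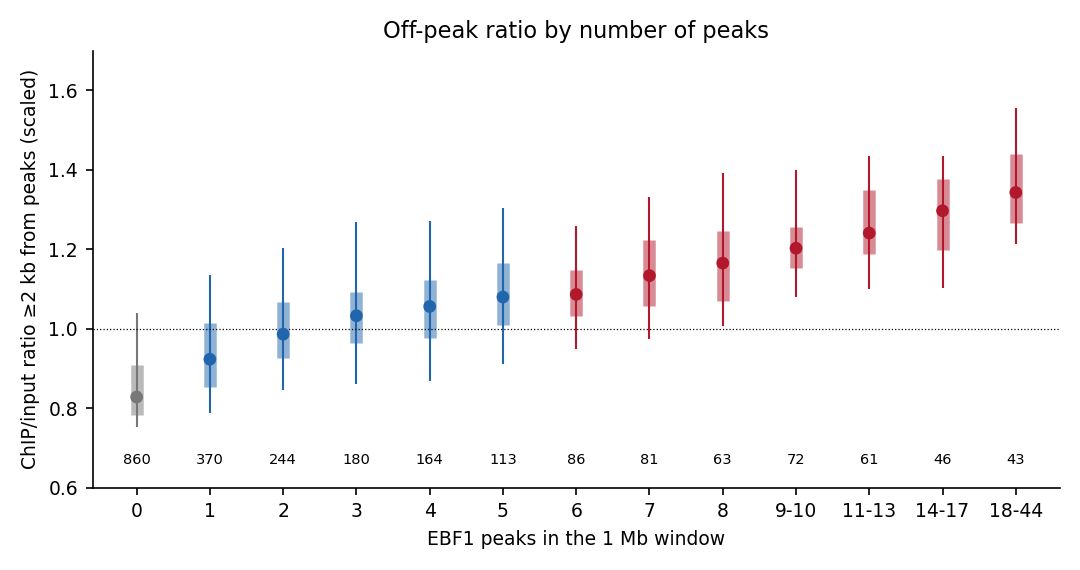
Off-peak ChIP to input ratio by number of peaks in the 1 Mb window, with the median (point), the middle 50% (thick bar) and the middle 90% of windows (thin line), and the number of windows printed above the axis; grey marks 0 peaks, blue 1 to 5 and red 6 or more. The medians climb from 0.829 with 0 peaks through 1.08 with 5 and 1.09 with 6 to 1.34 with 18 to 44, with no step at the limit of 6.

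The extremes of the off-peak ratio were in windows of very different density. After the pair on chromosome 10, the highest was on chromosome 8 from 123000001 to 124000000, with 23 peaks and a ratio of 1.56 (1.52 to 1.61), within a run of 4. The 3 lowest ratios belonged to windows with 6 peaks. On chromosome 3 from 142000001 to 143000000 the ratio was 0.902 (0.877 to 0.927), and the highest score among its peaks was 7.84. On chromosome 12 from 79000001 to 80000000 it was 0.907 (0.880 to 0.934), with a highest score of 9.81. The window on chromosome 19 from 11000001 to 12000000 had a ratio of 0.932 (0.906 to 0.959) and scores up to 17.7, beside a window with 13 peaks at 1.37. An off-peak ratio below 1 was found in 27 of the 452 peak-rich windows. It was found in 537 of the 1071 with 1 to 5 peaks and 787 of the 860 with 0.

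The difference lay mainly in the ChIP library. Off-peak input density was 10.0 reads per covered kb in peak-rich windows (middle 50% of windows 9.74 to 10.4) and 9.68 (9.33 to 9.99) in windows with 1 to 5 peaks, a factor of 1.04. Scaled ChIP density was 12.01 (11.1 to 13.04) against 9.82 (8.57 to 10.7), a factor of 1.22. Input density therefore moved the same way as the number of peaks, by less. Windows were also compared at similar input density, within 4 equal groups of all windows ordered by input reads per covered kb. The ratio of medians was 1.29 in the lowest group (18 peak-rich windows), then 1.24 (63), 1.18 (116) and 1.14 in the highest (255).

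The difference was found on every autosome. The median off-peak ratio of peak-rich windows exceeded that of windows with 1 to 5 peaks on 19 of 19 chromosomes, by factors from 1.10 on chromosome 6 to 1.33 on chromosome 15. The median of peak-rich windows ran from 1.08 on chromosome 3 to 1.29 on chromosome 2. Forward-strand and reverse-strand reads, counted apart, gave factors of 1.20 and 1.20, and their ratios differed by a median of 2.11% within a window. The strands come from the same 2 libraries and show only the counting precision.

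At the same distance from the nearest peak, up to 500 kb, the ratio was still higher in peak-rich windows. At 2 to 5 kb from a peak the pooled ratio was 1.27 (1.27 to 1.28) in peak-rich windows and 1.07 (1.07 to 1.08) in windows with 1 to 5 peaks, a factor of 1.19. At 20 to 50 kb the values were 1.22 and 1.05, a factor of 1.16, and at 50 to 100 kb 1.18 and 1.04, a factor of 1.13. Beyond that both ratios were lower. At 100 to 200 kb they were 1.15 and 1.03, a factor of 1.12, and at 200 to 500 kb 1.08 (1.07 to 1.08) and 0.977 (0.975 to 0.978), still a factor of 1.10. The classes came together at 500 to 1000 kb, where peak-rich windows had only 1977 covered bins, with 0.911 (0.892 to 0.930) and 0.904 (0.902 to 0.907). The ratio near peaks themselves reached 2.17 within 1 kb and was 1.28 at 1 to 2 kb, so the narrow signal ended well before the limit of 2 kb. In these windows the ratio then declined by small amounts over 100 kb or more.

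**Figure D4:**
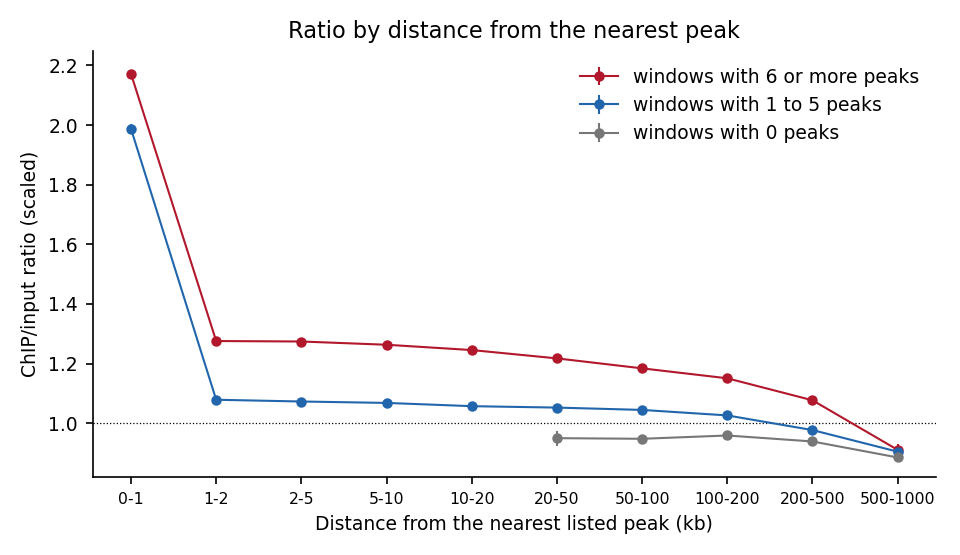
Pooled scaled ChIP to input ratio in 1 kb bins by distance in kb from the nearest listed peak, for windows with 6 or more, 1 to 5 and 0 peaks; bars are 95% intervals for counting error, mostly smaller than the points. From 0 to 500 kb the red line stays above the blue one, with 1.27 against 1.07 at 2 to 5 kb and 1.08 against 0.977 at 200 to 500 kb, and the lines meet at 500 to 1000 kb.

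The higher ratio was spread over many bins. Among off-peak covered bins with fewer than 50 input reads, the median bin held 12 ChIP and 10 input reads in peak-rich windows, and 10 ChIP and 9 input reads with 1 to 5 peaks. At least 20 ChIP reads were found in 11.8% of such bins in peak-rich windows and in 4.43% with 1 to 5 peaks, against 2.46% and 1.98% for input reads. The variance of ChIP counts over their mean was 2.74 and 2.59 in the 2 classes, and that of input counts 1.88 and 1.96. In absolute terms most ChIP reads above scaled input in peak-rich windows lay away from listed peaks. The excess was 886043 reads at least 2 kb from peaks and 237261 reads nearer to them, of which 84695 were within the 150 bp of the peaks. The distant part made up 78.9% of the excess, or 79.7% when the libraries were scaled by their off-peak reads. The distant bins also held most of the sequence, with 4228547 of the 4492204 input reads of peak-rich windows. Relative to input the excess was larger near peaks. The scaled ratio in these windows was 1.85 within 2 kb of peaks and 1.20 at least 2 kb away. Over the whole genome such an excess sums to 0 by construction, and in windows with 0 peaks the off-peak excess was -1102972 reads.

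At the edges of runs the off-peak ratio went down gradually. Of 492 ends of runs, 481 had a neighbouring window with at least 2000 input reads. The outermost peak-rich window had a median off-peak ratio of 1.15 and the first window outside 1.06, with medians of 8 and 2 peaks. The median drop, the ratio inside over that outside, was 1.07, with the middle 50% of edges from 1.00 to 1.17. Among all neighbouring windows that differ in number of peaks, the side with more peaks had the higher ratio in 73% of pairs, and by at least 1.1-fold in 36.5%. Of the 481 edges, 363 (75.5%) were higher inside and 204 (42.4%) by at least 1.1-fold. In the 1227 pairs that are not run edges these shares were 72.0% and 34.2%. The share of pairs higher on the side with more peaks was thus close at run edges and elsewhere, and the share past 1.1-fold was somewhat larger at run edges.

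The drop depended on what lay outside. It was 1.17 at 96 edges beside windows with 0 peaks, 1.07 at 172 edges beside windows with 1 or 2 peaks and 1.04 at 213 edges beside windows with 3 to 5. It was 1.05 at the 296 edges of single windows and 1.11 at the 96 edges of runs of 3 or more. Borders between windows with 1 to 5 peaks and windows with 0 peaks, measured the same way, had a median drop of 1.08 over 638 borders, from 0.939 to 0.862, and 259 of them (40.6%) reached 1.1-fold. Where the outer window also held 0 peaks, run edges had the median of 1.17 given above, and 74 of 96 (77.1%) reached 1.1-fold. These outer windows were not alike in ratio, with medians of 0.938 at run edges and 0.862 at the borders. The inner windows differed by choice, with medians of 7 and 2 peaks. Regardless of sign, neighbouring windows differed by a median factor of 1.09 at run edges and 1.07 at 206 borders inside runs.

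In steps of 100 kb the medians went down over megabases, in part where the set of edges changed. The median off-peak ratio was 1.15 at 400 to 500 kb inside the edge, 1.11 in the last 100 kb inside and 1.08 in the first 100 kb outside. It was 1.03 at 900 to 1000 kb outside, 0.974 at 1.9 to 2.0 Mb and 0.922 at 2.9 to 3.0 Mb, where 284 edges were left that had not met another peak-rich window. At borders of windows with 1 to 5 peaks the corresponding values were 0.930, 0.898 and 0.885, and then 0.852, 0.824 and 0.808 over 178 borders. At each of these distances the median outside peak-rich runs was above that outside windows with 1 to 5 peaks. The outer windows differed by choice, with medians of 2 peaks at run edges and 0 at these borders. The part of this in the order was not tested. Fewer edges enter at more than 1 Mb on either side, which moves the medians there. Across 1 Mb outside runs, the median went from 1.03 over 469 edges to 0.992 over 342 in the next step. Across 2 Mb it went from 0.974 over 341 edges to 0.946 over 283.

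**Figure D5:**
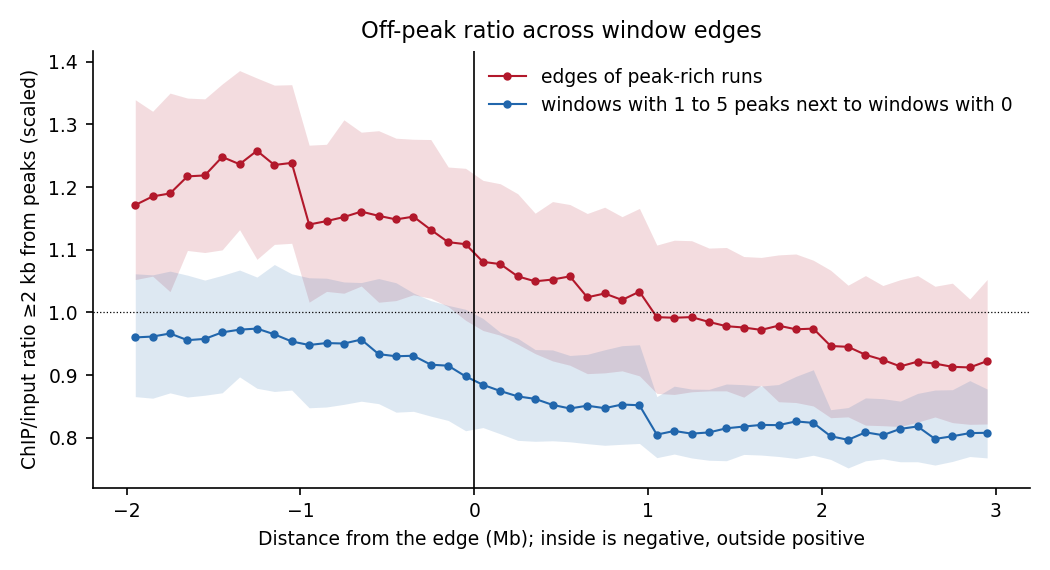
Median off-peak ChIP to input ratio (line) and the middle 50% of edges (shading) in 100 kb steps from 2 Mb inside (negative) to 3 Mb outside (positive), for the edges of peak-rich runs (red) and for windows with 1 to 5 peaks next to windows with 0 peaks (blue). The red line passes from 1.15 at 0.4 to 0.5 Mb inside to 1.03 at 0.9 to 1.0 Mb outside with no sharp step at the edge, and the jumps at 1 Mb come with the change in the edges that enter.

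Because the grid of windows places edges at round positions, the profile was also taken from the outermost peak of each run. The median ratio was 1.16 in the 100 kb inside that peak, 1.13 in the first 100 kb beyond it, 1.07 in the next and 1.06 at 400 to 500 kb. It was 1.02 at 900 to 1000 kb. From the last 100 kb inside to the second 100 kb outside, the median thus went from 1.16 to 1.07 around the outermost peak and from 1.11 to 1.08 around the grid edge. By choice, the outermost peak has no counted peak between it and the end of its run. The stretch just beyond it is therefore poorer in peaks by construction. In peak-rich windows the ratio also declined with distance from the nearest peak, as given above. The part of this in the steeper fall was not tested, and nothing is read from the contrast with the grid edge.

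The largest drop, 1.88, was at the end of the pair on chromosome 10, at position 81000000, from 1.72 to 0.912. The outer window there had 707 covered bins and 5746 input reads, against 995 bins and 10850 reads inside. The next, 1.82, was at position 114000000 on chromosome 12, from a window with 14 peaks at 1.44 (1.40 to 1.48) to one with 0 peaks at 0.791 (0.755 to 0.828). The outer window there held only 4092 input reads in 917 covered bins, against 9815 reads in 963 bins inside. The part of the lower input counts in these drops was not tested. The third, 1.75, was at position 57000000 on chromosome 17, between a window with 20 peaks at 1.46 and one with 0 peaks at 0.832. The reverse was seen at 118 edges, where the ratio outside was as high as inside or higher. The 3 most extreme included both sides of a single window on chromosome 2 from 34000001 to 35000000, at drops of 0.777 and 0.805. This window held 8 peaks at 1.02 between windows with 3 and 4 peaks at 1.32 and 1.27. The other, a drop of 0.782, was at the start of a run of 5 on chromosome 7, at position 140000001. There the ratio was 1.07 inside with 8 peaks and 1.36 outside with 3.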

How the data were processed

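One EBF1 ChIP library and 1 input library were analysed. The authors deposited their reads as 1 line per aligned 35 bp read, with position and strand and no other value, and a peak list with a score per 150 bp peak, per the files. Per the submitters' processing notes, positions are in mm8 and HOMER was among the tools. Neither the aligner nor the caller settings nor any duplicate filter is given in the sources used here. Computation used numpy 2.4.6 and scipy 1.17.1 with pandas 2.3.3 under Python 3.11.15, and matplotlib 3.10.9 drew the figures.

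Windows and 1 kb bins count 5′ ends. Off-peak bins lay at least 2 kb from every listed peak, high-input ones included. Reads in peaks were counted after moving 5′ ends by 100 bp. ChIP to input ratios were divided by 1.06, the ratio of library totals. Intervals of 95% are exact (Clopper-Pearson, conditional binomial for ratios) and cover counting error only, since PCR reads are not independent molecules. No p-value is given, because each group held 1 library. Profiles used steps with at least 200 off-peak input reads and at least 20 edges. Named windows were the 3 with the most peaks, the highest and lowest off-peak ratio and the highest and lowest mean signal, the 3 longest runs, the 2 isolated windows with the most peaks and the 3 largest and smallest drops. The computation was checked on planted ratios. The windows, rule and settings were chosen with earlier results of these data known. Gene names and sequences were not used here, because the tables at hand describe another build.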

Additional observations from a re-analysis of the deposited data

Results flagged for a closer look

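Chromosome X lay outside the rule. Of its 149 windows with at least 2000 input reads, 2 (1.34%) held at least 6 EBF1 peaks, against 18.97% of the windows on chromosomes 1 to 19. The window from 11000001 to 12000000 held 8 peaks with 143 ChIP and 8 input reads and had an off-peak ratio of 1.15 (1.12 to 1.18), beside windows with 0 and 1 peak. The window from 70000001 to 71000000 held 6 peaks with 70 ChIP and 7 input reads and had a ratio of 1.08 (1.05 to 1.11), beside windows with 2 and 3 peaks. The median ratio was 0.822 over the 149 windows and 0.884 over the 41 with 1 to 5 peaks. Both windows thus stood above these medians. Of the other 147 windows, 1 had a higher ratio than the first and 2 had a higher ratio than the second, the highest being 1.17.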

How the results depend on the processing

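In 101 recalculations of 10 results, every ratio set against 1 kept its side. The larger part of the variance went from number to strength of peaks in 2 settings, 0.5 Mb windows and at least 8 peaks. Counts were taken as moved beyond 1.5 times, the variance share by any change in its first decimal, and other values outside their interval for counting error. By these narrow limits 52 values moved and 49 did not. With the grid moved by 0.5 Mb, the share of peak reads was 66.8%, the variance share of number 53.0%, the factor between the classes 1.20 (1.19928) and the edge drop 1.09. Windows of 0.5 Mb with at least 3 peaks held 75.9% of peaks and 78.7% of peak reads, in 218 runs of at least 2, the longest of 14, with a variance share of 46.8%, an off-peak ratio of 1.17, a factor of 1.15 and a drop of 1.05. Asking for 8 peaks gave 285 windows, 49.1% of peaks, 51.6% of peak reads, 49.8%, 1.23, 1.21 and 1.08. Asking for 5 gave 71.8%, 74.0%, 55.3%, 1.17, 1.18 and 1.07 in the same order. Counting all listed peaks gave 67.3% of peak reads and a variance share of 51.8%. Peaks with a score of at least 10 gave 71.6% of peaks, 73.1% of peak reads, 62 runs, a variance share of 51.4%, a factor of 1.14, a drop of 1.06 and, by construction, a median score of 16.1. At 5000 input reads the variance share was 52.4% and the drop 1.07. Bins 5 kb from peaks gave 1.19 and a factor of 1.19, and bins 20 kb away 1.18 and 1.18. Without off-peak bins of high input or strong enrichment these were 1.19 and 1.19. Background scaling gave 1.21. Pooled reads gave a factor of 1.19 (1.1895) and a drop of 1.08. The variance share was 53.0% (52.9876) with 5′ ends not moved, 51.9% with 50 bp, 62.8% in 1 kb around the centre and 51.2% without the 2 densest windows. The drop was 1.11 (1.11498) beside windows with 0 to 2 peaks and 1.06 where both windows had at least 8000 off-peak input reads. Reverse-strand reads gave 1.19 (1.191). The strand, densest-window and 8000-read settings were added after seeing the data. For all shifts, the cause was not tested. Only 1 library per group limits every value. No paired analysis was possible because there was 1 library of each kind, numbered only in accession order.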
